A study of Mus musculus with 14 samples.

Results

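The 10 genes described here are the main ligands and receptors of the vascular endothelial growth factor (VEGF) and angiopoietin pathways: the ligands Vegfa, Vegfb, Vegfc, Angpt1 and Angpt2, and the receptors Flt1, Kdr, Flt4, Tek and Tie1. They were taken by symbol from the raw count table, which held 54532 genes, and all 10 were found and passed the filter on low counts, as did 15876 genes in all. The libraries came from ventricular heart tissue of mice, 1 week after surgery. The 4 groups were Ccl24 knockout mice after transverse aortic constriction (KO TAC, n = 4), wild type mice after the same operation (WT TAC, n = 6), knockout mice after sham surgery (KO sham, n = 2) and wild type mice after sham surgery (WT sham, n = 2). TAC raises the load on the left ventricle by tying a narrowing around the aortic arch. Ccl24 encodes a CC-type chemokine, and its knockout is labelled as such in every KO library, with no tissue restriction stated. Strain, age, sex and the way the gene was deleted were not given in the sources used. Each library was taken as 1 mouse, because the study's design text gives the same numbers.

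VEGF ligands are secreted dimers that act on tyrosine kinase receptors of endothelial cells. Kdr (VEGFR2) carries most of the growth and permeability signal of Vegfa, Flt1 (VEGFR1) binds Vegfa and Vegfb tightly and signals weakly, and Flt4 (VEGFR3) is the receptor of Vegfc in lymphatic and some blood vessels. In the angiopoietin pathway, Angpt1 from perivascular and muscle cells activates the receptor Tek (Tie2) and keeps vessels quiescent. Angpt2 from endothelial cells acts mostly as its context-dependent antagonist, and Tie1 is a partner receptor of Tek. In the heart, muscle cells are a main source of Vegfa and Vegfb, and growth of capillaries with the muscle is known to matter for the response to pressure overload.

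The libraries held 17072262 to 33123052 gene counts, so that 3 counts stood for 0.0906 to 0.176 CPM (counts scaled to the library total), and the intervals given below cover sampling and replicate error of these libraries alone. The targeted gene Ccl24 had 3 to 8 counts in the 6 KO libraries, 61 and 72 in WT sham and 56 to 105 in 5 of the 6 WT TAC libraries. The library labelled WT TAC replicate 1 had 3 Ccl24 counts, which goes against its label, and the main results for the 10 genes are given with and without it. Without it, 5.3% of all tested genes passed in TAC against sham in KO, 17.4% in WT, 18.5% in KO against WT after TAC and 0.397% between the sham groups, against 4.08%, 12.2%, 9.34% and 0.126% with it. Mitochondrially encoded genes took 14.9 to 19.2% of counts in KO TAC, 10.1 to 17.1% in WT TAC, 20.5 and 23.7% in KO sham, and 18.8 and 18.5% in WT sham. All 17 cardiomyocyte and all 28 endothelial markers were detected in every library, as were 16 of 16 markers each of pericytes and smooth muscle, fibroblasts and macrophages. Of the 11 lymphatic markers, Ccl21a had 0 counts in at least 1 library.

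Promoters are shown for the 2 ligands that differed between KO TAC and WT TAC, Vegfa and Vegfb, and for Kdr and Flt1, the receptors to which Vegfa binds. Each sequence is the 250 bases ahead of a RefSeq transcript start on GRCm38.p6, read 5′ to 3′ on the minus strand, on which all 4 genes lie. Capitals mark the core of the hypoxia response element (ACGTG or GCGTG) and the core of ETS factor motifs (GGAA), searched on both strands, so that CACGC and TTCC are the same motifs on the opposite strand, and no base fell in more than 1 match. The Vegfa window lies at chr17:46032378-46032627, the Vegfb window at chr19:6987652-6987901, the Kdr window at chr5:75978456-75978705 and the Flt1 window at chr5:147726012-147726261.
Vegfa: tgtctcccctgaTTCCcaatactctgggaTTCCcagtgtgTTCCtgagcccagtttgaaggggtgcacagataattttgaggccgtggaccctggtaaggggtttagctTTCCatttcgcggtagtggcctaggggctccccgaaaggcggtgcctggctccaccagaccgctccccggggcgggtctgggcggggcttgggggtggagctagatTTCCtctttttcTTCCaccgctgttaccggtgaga
Vegfb: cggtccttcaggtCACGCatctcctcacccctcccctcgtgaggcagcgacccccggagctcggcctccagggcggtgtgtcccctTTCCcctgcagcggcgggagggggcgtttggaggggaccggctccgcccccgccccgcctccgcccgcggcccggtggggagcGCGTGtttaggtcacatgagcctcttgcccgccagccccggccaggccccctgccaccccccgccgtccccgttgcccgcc
Kdr: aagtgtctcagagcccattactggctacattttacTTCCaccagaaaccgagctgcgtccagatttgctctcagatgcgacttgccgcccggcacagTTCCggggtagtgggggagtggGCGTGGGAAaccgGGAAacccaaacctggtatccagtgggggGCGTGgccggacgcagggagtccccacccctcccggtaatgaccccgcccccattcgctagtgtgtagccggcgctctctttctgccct
Flt1: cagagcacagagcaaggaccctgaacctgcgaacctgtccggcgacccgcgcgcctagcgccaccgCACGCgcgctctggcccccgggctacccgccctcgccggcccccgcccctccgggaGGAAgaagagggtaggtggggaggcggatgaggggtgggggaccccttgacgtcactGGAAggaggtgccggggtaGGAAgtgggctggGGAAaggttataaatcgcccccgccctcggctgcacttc

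The Vegfa window shown held 6 GGAA cores and 0 hypoxia cores of either spelling. RefSeq has a further Vegfa start with a window at chr17:46025164-46025413, inside the annotated gene and not shown for that reason, and this window held 1 ACGTG core, 1 GCGTG core and 2 GGAA cores. The Vegfb window held 2 GCGTG cores and 1 GGAA core, the Kdr window 2 GCGTG and 4 GGAA cores, and the Flt1 window 1 GCGTG and 4 GGAA cores. Of 32851 promoter windows of the same length, 93.4% held a GGAA core, 28.2% held GCGTG, 16.6% held ACGTG and 38.6% held at least 1 of the hypoxia spellings, so these matches are common and serve as a description only.

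Levels of different genes were compared as CPM per kilobase of exon, averaged over the 14 libraries, with coordinates and exon lengths of GENCODE M21 on GRCm38. The ligand Vegfb stood first at 163 CPM per kilobase, followed by Vegfa at 55.5, Kdr at 25.0, Tie1 at 24.7, Tek at 15, Flt1 at 11.3, Vegfc at 4.43, Flt4 at 4.28, Angpt1 at 2.36 and Angpt2 at 1.38. Vegfb was above Vegfa, and Vegfa above Kdr, in 14 of 14 libraries, and the same held for Tie1 over Tek, Tek over Flt1 and Flt1 over Vegfc. Kdr and Tie1 changed places between libraries, with Kdr higher in 9 of 14, and so did Vegfc and Flt4, with Vegfc higher in 9 of 14. Flt4 was above Angpt1 in 12 of 14 libraries, and Angpt1 above Angpt2 in 13 of 14. The gene that varied most was Angpt1, whose highest library was 8.33-fold above its lowest, then Kdr at 3.95-fold, Angpt2 at 3.02-fold and Vegfa at 2.38-fold. Flt1 and Tie1 varied least, at 1.32-fold and 1.39-fold.

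**Figure D1:**
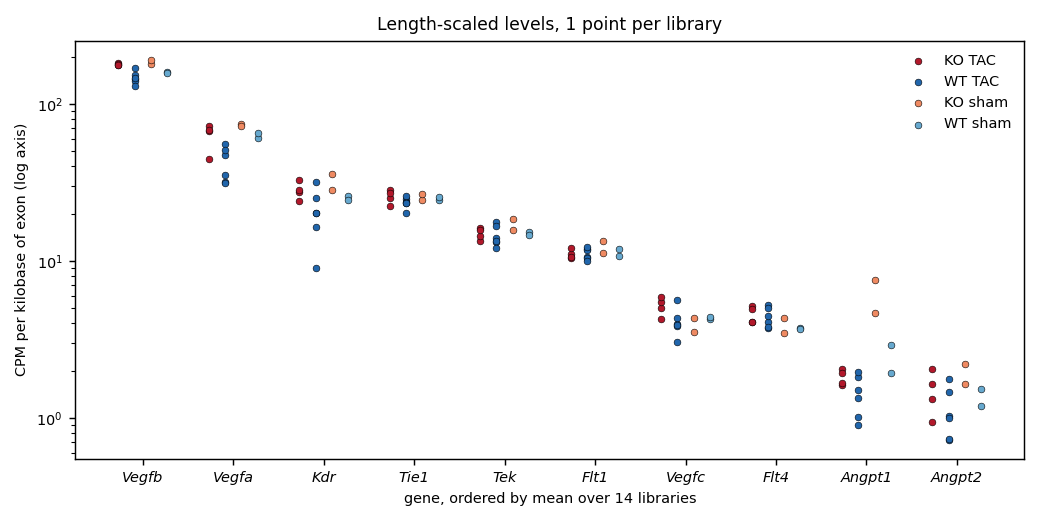
CPM per kilobase of exon (log axis) of the 10 genes, ordered by their mean over 14 libraries, with 1 point per library and the groups side by side. Vegfb lies above all other genes in every library, whereas Kdr spreads widely in WT TAC and Angpt1 is high in both KO sham libraries.

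Vegfa, the principal growth factor of blood vessels, was higher in KO TAC than in WT TAC hearts. It lies at chr17:46016993-46032369 on the minus strand, with 13 annotated transcripts that the gene counts do not separate. The 4 KO TAC libraries had 190.5, 288, 309 and 294 CPM, against a lowest value of 134.5, a median of 176 and a highest value of 238 CPM in the 6 WT TAC libraries. The KO sham libraries had 321 and 312 CPM, and the WT sham libraries 259 and 279 CPM. Within each genotype every TAC library was thus below every sham library, and 3 of the 4 KO TAC libraries were above all WT TAC libraries, with KO TAC replicate 1 inside the WT TAC range.

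After TAC, Vegfa averaged 270 ± 54.1 CPM in KO (SD, n = 4) and 180 ± 44.9 CPM in WT (SD, n = 6), a log2 fold change of 0.59 (SE 0.173, 95% interval 0.22 to 0.96, fold 1.51), which passed at an adjusted p of 0.047 (edgeR quasi-likelihood test, Benjamini-Hochberg over all genes). In this comparison 9.34% of all tested genes passed, 3.71% higher and 5.63% lower in KO. Of the 10 VEGF and angiopoietin genes 2 passed, both higher in KO, Vegfa and Vegfb. The Vegfa call was close to the threshold: it passed in 4 of the 14 fits that left out 1 library, with adjusted p between 0.013 and 0.14. Leaving out KO TAC replicate 2, 4 or 5, WT TAC replicate 3, 4 or 7, or any 1 of the 4 sham libraries ended it. Without the library labelled WT TAC replicate 1 the WT TAC mean was 168 ± 38.8 CPM (SD, n = 5) and the log2 fold change 0.69 (SE 0.164, adjusted p = 0.013).

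TAC against sham within a genotype gave Vegfa a log2 fold change of -0.23 in KO (SE 0.232, adjusted p = 0.62) and of -0.58 in WT (SE 0.214, 95% interval -1.04 to -0.12, adjusted p = 0.087), with sham means of 316 ± 6.22 CPM in KO and 269 ± 13.9 CPM in WT (SD, n = 2 each). Neither passed. Without the library labelled WT TAC replicate 1 the difference in WT was -0.68 (SE 0.200) and passed at an adjusted p of 0.034. In WT, 12.2% of all tested genes passed in TAC against sham (6.36% higher and 5.8% lower), and 0 of the 10 genes described here by edgeR, against 2 each by DESeq2 and limma voom. Of all 15876 genes, DESeq2 called 2779 and limma voom 5730, against 1930 by edgeR. At an unadjusted edgeR p under 0.05 there were 2 of the 10, Vegfa and Angpt1, against 30.1% of all genes. The groups of 1 of the 10, Vegfa, did not overlap, which held for 33% of all genes. These comparisons share the WT TAC libraries with the comparison of genotypes after TAC, so they are given side by side and not as separate support. The interaction of Vegfa, its effect of TAC in KO minus that in WT, was 0.36 (SE 0.321, 95% interval -0.33 to 1.05) and did not pass. It was 0.45 without the library labelled WT TAC replicate 1 (SE 0.296, adjusted p = 0.88). The change of Vegfa after TAC is therefore not shown to differ between the genotypes. Between the sham groups Vegfa had a log2 fold change of 0.23 in KO against WT (SE 0.270, adjusted p = 0.8).

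**Figure D2:**
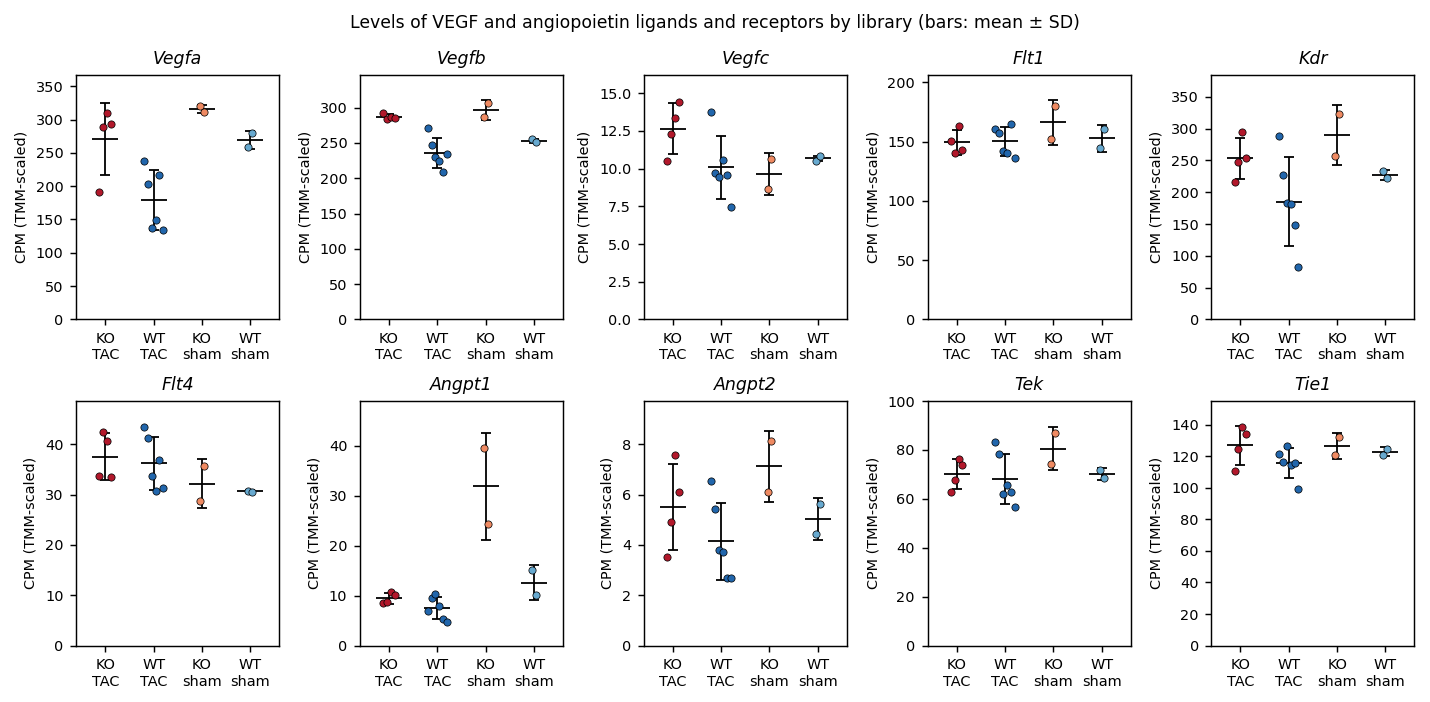
TMM-scaled CPM of each gene by group, with 1 point per library and bars for the mean ± SD. Vegfb separates KO TAC from WT TAC, Vegfa and Kdr spread widely in WT TAC, and the KO sham libraries stand highest for Angpt1.

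Vegfb, a ligand of Flt1 that is abundant in heart muscle and known for effects on coronary vessels and fatty acid uptake, was the 1 gene of the 10 whose KO TAC and WT TAC values did not overlap. It lies at chr19:6982473-6987651. The KO TAC libraries had 293, 284, 287 and 285 CPM, against a lowest value of 209, a median of 232 and a highest value of 271 CPM in WT TAC. The KO sham libraries had 287 and 306 CPM, and the WT sham libraries 255 and 251 CPM. Every KO library was above every WT library after the same surgery.

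The Vegfb means after TAC were 287 ± 4.06 CPM in KO (SD, n = 4) and 236 ± 21.2 CPM in WT (SD, n = 6), a log2 fold change of 0.28 (SE 0.0755, 95% interval 0.12 to 0.44, fold 1.22, adjusted p = 0.032). KO TAC lay above WT TAC without overlap for 2.44% of all genes. The call was kept in 7 of the 14 fits that left out 1 library, with adjusted p between 0.0048 and 0.088, and was lost without KO TAC replicate 2, 4 or 5, WT TAC replicate 3 or 4, or either WT sham library. Without the library labelled WT TAC replicate 1 the log2 fold change was 0.33 (SE 0.0683, adjusted p = 0.0048). The difference between the sham groups was of like size at 0.23 and did not pass (adjusted p = 0.48). TAC against sham gave -0.05 in KO (SE 0.102) and -0.10 in WT (SE 0.0956), or -0.14 in WT without the library labelled WT TAC replicate 1.

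Vegfc, the growth factor of lymphatic vessels and ligand of Flt4, had 10.5, 12.3, 13.4 and 14.4 CPM in KO TAC, against a lowest value of 7.43, a median of 9.62 and a highest value of 13.8 CPM in WT TAC. KO sham had 8.68 and 10.6 CPM, and WT sham 10.5 and 10.8 CPM. The highest WT TAC value was that of the library labelled replicate 1, and the other 5 reached at most 10.6 CPM. The log2 fold change of KO against WT after TAC was 0.33 (SE 0.141, adjusted p = 0.14) with all libraries. Without that library it was 0.44 (SE 0.121) and passed at an adjusted p of 0.021, so Vegfc passed in this test without that library and not with it. With all libraries Vegfc also passed by limma voom with sample weights (0.385, adjusted p = 0.015), which called 4587 of 15876 genes. Within KO, TAC against sham gave 0.39 (SE 0.196, adjusted p = 0.27).

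Kdr, the main signalling receptor of Vegfa, was the receptor with the widest spread. It lies at chr5:75932827-75978458. The KO TAC libraries had 217, 247, 294 and 254 CPM, against a lowest value of 81.9, a median of 182 and a highest value of 288 CPM in WT TAC. KO sham had 257 and 323.5 CPM, and WT sham 233 and 222 CPM. The WT TAC libraries thus ran from below all other libraries to the level of the highest KO TAC library. The mean was 253 ± 31.9 CPM in KO TAC (SD, n = 4) and 185 ± 69.9 CPM in WT TAC (SD, n = 6), and the log2 fold change of 0.45 did not pass (SE 0.253, 95% interval -0.10 to 1.00, adjusted p = 0.26). Without the library labelled WT TAC replicate 1 the WT TAC mean was 164 ± 54 CPM (SD, n = 5) and the log2 fold change 0.62 (SE 0.226, adjusted p = 0.077). By limma voom with sample weights and all libraries, Kdr passed (0.494, adjusted p = 0.026), as did 4587 of 15876 genes in all.

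Flt1, which binds Vegfa and Vegfb and is also made as a soluble decoy that gene counts do not separate from the full receptor, stayed within a narrow range. It had 140 to 163 CPM in KO TAC, 136 to 164.5 CPM in WT TAC, 153 and 180 CPM in KO sham, and 145 and 161 CPM in WT sham. The log2 fold change of KO against WT after TAC was -0.0093 with a 95% interval of -0.18 to 0.16, and that of TAC against sham in WT was -0.02 with an interval of -0.24 to 0.19. Flt4, the receptor of Vegfc, had 33.5 to 42.4 CPM in KO TAC, 30.8 to 43.4 CPM in WT TAC, 28.7 and 35.65 CPM in KO sham, and 30.8 and 30.5 CPM in WT sham. Its log2 fold change of TAC against sham was 0.22 in KO (SE 0.149, adjusted p = 0.42) and 0.24 in WT (SE 0.141, adjusted p = 0.26). Neither Flt1 nor Flt4 passed in any of the 5 comparisons. In bulk tissue, fewer cells of a type and less RNA per cell cannot be told apart, which bears on every receptor here.

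Angpt1, the vessel-stabilizing ligand of Tek, was the only gene of the 10 that passed in TAC against sham, and it did so in KO hearts. It lies at chr15:42424723-42676977 on the minus strand. The KO TAC libraries had 8.49, 8.64, 10.7 and 10.1 CPM, against 39.5 and 24.3 CPM in KO sham. The WT TAC libraries had a lowest value of 4.735, a median of 7.46 and a highest value of 10.3 CPM, against 15.1 and 10.15 CPM in WT sham. Both KO sham libraries were above all 12 others, and the KO TAC libraries lay inside the range of WT TAC and WT sham together.

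In KO hearts Angpt1 fell to 9.48 ± 1.09 CPM after TAC (SD, n = 4), against 31.9 ± 10.7 CPM after sham (SD, n = 2), a log2 fold change of -1.75 (SE 0.273, 95% interval -2.33 to -1.17, fold 0.297, adjusted p = 0.0051). In this comparison 4.08% of all tested genes passed, 2.36% higher and 1.73% lower, and 1 of the 10 genes described here, which was also the only gene of them at an unadjusted p under 0.05, against 20.8% of all genes. The TAC and sham libraries of 2 of the 10, Angpt1 and Vegfa, did not overlap, which held for 34.6% of all genes. The call was kept in 13 of the 14 fits that left out 1 library. It was lost without KO sham replicate 1, where the log2 fold change was -1.36. In that fit the lone KO sham library is assumed to vary like the other groups, so it cannot tell how far the call depends on replicate 1. The log2 fold change was -1.75 without the library labelled WT TAC replicate 1 (adjusted p = 0.0066). In WT hearts the means were 7.46 ± 2.23 CPM after TAC (SD, n = 6) and 12.6 ± 3.5 CPM after sham (SD, n = 2), and the log2 fold change of -0.76 did not pass (SE 0.265, adjusted p = 0.075). It passed without WT TAC replicate 2 (-0.87, adjusted p = 0.042) or replicate 3 (-0.89, adjusted p = 0.045), and it was -0.74 without the library labelled replicate 1 (adjusted p = 0.092).

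Between the sham groups Angpt1 had a log2 fold change of 1.33 in KO against WT (SE 0.330, 95% interval 0.63 to 2.04, fold 2.52) with an unadjusted p of 0.0012 and an adjusted p of 0.17. In that comparison 0.126% of all genes passed and 0 of the 10 described here by edgeR, against 1 each by DESeq2 and limma voom. Of all 15876 genes, DESeq2 called 147 and limma voom 705. At an unadjusted edgeR p under 0.05 there was 1 of the 10, against 11.3% of all genes. With 2 libraries a group, 6 of the 10 genes were higher in KO without overlap and 0 were lower without overlap, against 26.6% and 26.3% of all genes, 53% in all. After TAC the difference between KO and WT was 0.34 (SE 0.218, adjusted p = 0.32). The interaction, which is the effect of TAC in KO minus that in WT, was -0.99 (SE 0.394, 95% interval -1.83 to -0.14) with an unadjusted p of 0.025 and an adjusted p of 1. In the interaction 0% of all genes and 0 of the 10 passed by edgeR, as did 0 of the 10 by DESeq2 and limma voom, and 1 of the 10 had an unadjusted p under 0.05, against 4.08% of all genes. The interaction of Angpt1 was -1.01 without the library labelled WT TAC replicate 1 (adjusted p = 0.8). The change after TAC in KO is therefore not shown to differ from that in WT. An exon of Angpt1 overlaps the opposite-strand gene Gm17473, which had 1 to 10 counts in a library and 58 in all.

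Angpt2, the endothelial antagonist of Angpt1, had 3.50, 4.90, 7.56 and 6.09 CPM in KO TAC, against a lowest value of 2.69, a median of 3.77 and a highest value of 6.53 CPM in WT TAC. KO sham had 6.11 and 8.13 CPM, and WT sham 4.44 and 5.63 CPM. The groups overlapped after TAC, and the log2 fold change of KO against WT of 0.41 did not pass (SE 0.259, adjusted p = 0.31), nor did that of TAC against sham in KO (-0.37, SE 0.341) or in WT (-0.28, SE 0.328). Without the library labelled WT TAC replicate 1, the WT TAC mean was 3.67 ± 1.12 CPM (SD, n = 5), and the difference between genotypes after TAC was 0.58 (SE 0.237, adjusted p = 0.1).

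The receptors of the angiopoietin pathway, Tek and Tie1, did not pass in any comparison. Tek had 62.9 to 76.2 CPM in KO TAC, 56.8 to 83.3 CPM in WT TAC, 74.3 and 86.8 CPM in KO sham, and 72.0 and 68.5 CPM in WT sham. Tie1 had 111 to 138 CPM in KO TAC, 99.4 to 127 CPM in WT TAC, 121 and 132 CPM in KO sham, and 121 and 125 CPM in WT sham. The groups of both genes overlapped after TAC. For Tek the log2 fold change of KO against WT after TAC was 0.04 (SE 0.103, adjusted p = 0.81), and for Tie1 it was 0.13 (SE 0.0802, adjusted p = 0.29). TAC against sham in KO gave Tek -0.20 (SE 0.137, adjusted p = 0.44).

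Across the 10 genes, the median log2 fold change was -0.176 for TAC against sham in KO, where that of all tested genes was -0.013. It was -0.0936 for TAC against sham in WT, where that of all genes was 0.0112, and 0.308 for KO against WT after TAC, where that of all genes was -0.00959. Between the sham groups it was 0.214, where that of all genes was 0.00746. These medians are descriptions of genes that were chosen with earlier results known.

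**Figure D3:**
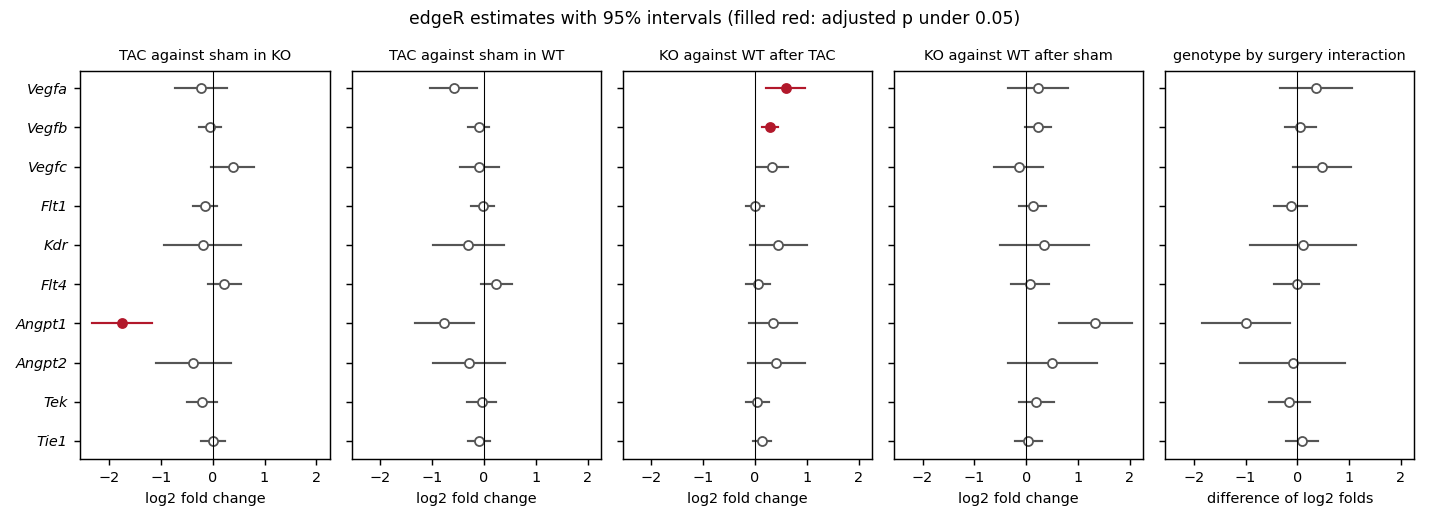
Estimated log2 fold changes (x axis) of the 10 genes in 4 comparisons, and the interaction as a difference of log2 folds, with 95% intervals from edgeR, filled red where the adjusted p was under 0.05. The filled points are Vegfa (0.59) and Vegfb (0.28) in KO against WT after TAC, and Angpt1 (-1.75) in TAC against sham in KO.

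Because the 5 receptors are made mostly by endothelial cells, their levels were also set beside the mean of 28 other endothelial genes in the same library, on the log2(CPM + 0.5) scale. After TAC, Flt1 was 0.956 ± 0.15 above that mean in KO (SD, n = 4) and 1.17 ± 0.078 above it in WT (SD, n = 6), a difference of -0.209 with an exact two-sided permutation p of 0.019, or 0.095 adjusted over the 5 receptors. The groups overlapped in part, and no receptor passed after adjustment. The endothelial mean itself was 6.27 ± 0.12 in KO TAC and 6.07 ± 0.098 in WT TAC (SD), and each difference here includes that shift. Flt1 on its own had a log2 fold change of -0.0093 in this comparison. Tek was at -0.129 ± 0.038 in KO TAC and 0.0203 ± 0.14 in WT TAC (exact permutation p = 0.067, adjusted p = 0.17). Kdr was 1.71 ± 0.11 above the mean in KO TAC and 1.37 ± 0.55 above it in WT TAC, where single libraries ran from 0.39 to 1.93 (difference 0.34, exact permutation p = 0.28). For Flt4 the difference was -0.147 (exact permutation p = 0.17) and for Tie1 -0.0704 (exact permutation p = 0.27). With 210 groupings of 10 libraries the smallest possible p was 0.0048. The differences without the library labelled WT TAC replicate 1 were -0.225 for Flt1 (exact permutation p = 0.024, adjusted p = 0.12), 0.452 for Kdr (exact permutation p = 0.11) and -0.125 for Tek (exact permutation p = 0.13), and none of the 5 receptors passed after adjustment. In the endothelial list itself, 7 of 28 genes rose and 1 fell in KO against WT after TAC (28.6%, against 9.34% of all genes). Among them were Ly6e (0.50), Egfl7 (0.69) and Fli1 (0.38), with the von Willebrand factor gene Vwf lower (-0.59). Without the library labelled WT TAC replicate 1, 10 rose and 1 fell (39.3%, against 18.5% of all genes).

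**Figure D4:**
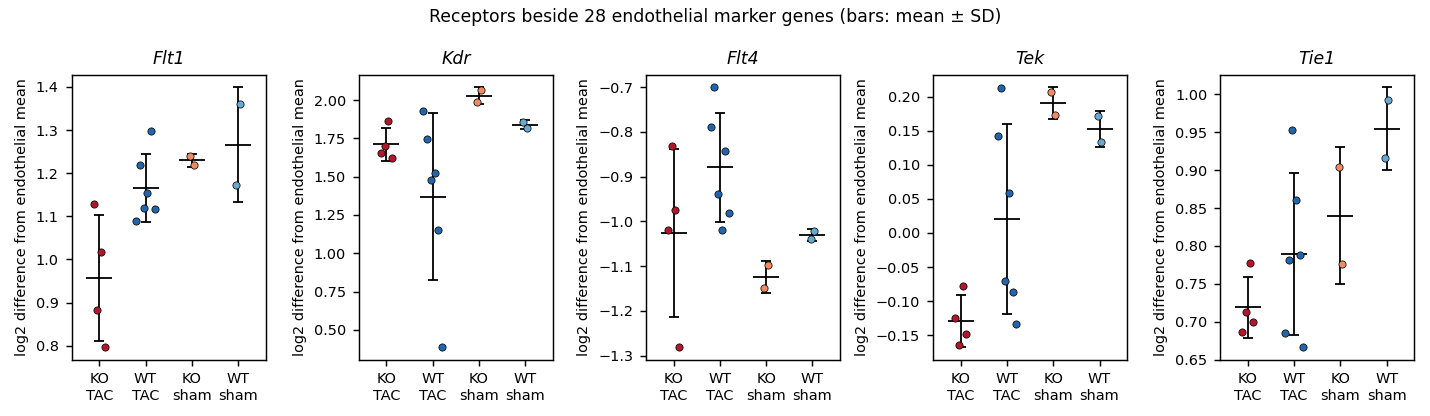
Level of each receptor minus the mean of 28 endothelial genes, log2(CPM + 0.5), with 1 point per library and bars for the mean ± SD. The y axes are separate and do not start at 0. For Flt1 the KO TAC libraries lie below all WT TAC libraries except KO TAC replicate 1, which is inside the WT TAC range. For Tek the KO TAC libraries lie lower than most WT TAC libraries, and WT TAC spreads widely for Kdr.

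Ratios of counts within a library need no scaling between libraries and are given without a test. The ratio of the antagonist to the agonist, Angpt2 to Angpt1, was 0.413 to 0.707 in KO TAC, 0.371 to 0.932 in WT TAC, 0.155 and 0.335 in KO sham, and 0.294 and 0.555 in WT sham. Both KO sham ratios were below all KO TAC ratios. The ratio of Flt1 to Kdr was 0.555 to 0.695 in KO TAC and 0.559 to 1.66 in WT TAC, with 0.555 and 0.595 in KO sham and 0.621 and 0.726 in WT sham. The ratio of Vegfa to Vegfb was 0.65 to 1.08 in KO TAC and 0.573 to 1.04 in WT TAC, with sham values of 1.02 to 1.12 in KO and 1.02 to 1.11 in WT. Tie1 to Tek stayed between 1.46 and 2.04 in WT TAC and between 1.76 and 1.84 in KO TAC.

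Single libraries tended to be high or low for several of the 10 genes at once. This was not counted over all genes, so it is not shown to be particular to these 10. In KO TAC, replicate 1 was lowest for 7 of the 10 genes (Vegfa, Vegfc, Kdr, Angpt1, Angpt2, Tek and Tie1) and replicate 4 highest for 7. In WT TAC, replicate 7 was lowest for 7 (Vegfa, Vegfc, Flt1, Kdr, Angpt1, Tek and Tie1), and the library labelled replicate 1 was highest for 7 (Vegfa, Vegfb, Vegfc, Kdr, Flt4, Angpt2 and Tek). WT TAC replicate 7 also had the lowest share of mitochondrial counts of its group, 10.1%, and the highest summed level of 16 fibroblast markers, 14750 CPM, and the library labelled replicate 1 the highest mitochondrial share, 17.1%, and the lowest fibroblast sum, 6844 CPM. Summed fibroblast markers ran from 4808 to 6950 CPM in KO TAC, 4764 to 5209 CPM in KO sham and 5701 to 5918 CPM in WT sham. Summed cardiomyocyte markers ran from 88410 to 102300 CPM in KO TAC, 70840 to 95970 CPM in WT TAC, 107400 to 108400 CPM in KO sham and 97840 to 98840 CPM in WT sham. Summed endothelial markers ran from 3350 to 4205 CPM in KO TAC, 3036 to 3597 CPM in WT TAC, 3143 to 3902 CPM in KO sham and 3068 to 3139 CPM in WT sham. Summed macrophage markers ran from 547.8 to 735.2 CPM in KO TAC, 632.8 to 1207 CPM in WT TAC, 504.4 to 526.9 CPM in KO sham and 494.6 to 518.5 CPM in WT sham. Of 12 immediate early genes, which are switched on quickly by stimulation, 8 rose and 0 fell in TAC against sham in KO, 2 rose and 0 fell in WT, and 7 were higher and 0 lower in KO than in WT after TAC, among them Jun (0.56), Dusp1 (0.95), Fosb (2.30) and Egr1 (0.99). In the same order, 66.7%, 16.7% and 58.3% of this list passed, against 4.08%, 12.2% and 9.34% of all genes. The mean log2(CPM + 0.5) of the immediate early genes ran from 4.48 to 4.87 in KO TAC and from 3.81 to 4.23 in WT TAC, without overlap. It ran from 3.37 to 3.39 in KO sham and 3.55 to 3.63 in WT sham. The mitochondrial shares, marker sums and immediate early genes thus differed between the groups and libraries compared here, and their part in the differences of the 10 genes was not tested.

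The lists that follow were counted against the same background as the 10 genes, namely 4.08% of all genes passed in TAC against sham in KO, 12.2% in WT and 9.34% in KO against WT after TAC. Without the library labelled WT TAC replicate 1 the background was 5.3%, 17.4% and 18.5% in the same order. A share near that of all genes in the same fit is not a result about a list.

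Among 29 further ligands, co-receptors and regulators of these pathways, 0 rose and 1 fell in TAC against sham in KO, 5 rose and 2 fell in WT, and 0 rose and 3 fell in KO against WT after TAC. The shares that passed were 3.45% in KO, 24.1% in WT and 10.3% in KO against WT after TAC, and without the library labelled WT TAC replicate 1 they were 10.3%, 37.9% and 34.5%. Pgf (placental growth factor), a further ligand of Flt1, averaged 8.51 ± 1.67 CPM in KO TAC (SD, n = 4) and 10.9 ± 0.0495 CPM in KO sham (SD, n = 2), a log2 fold change of -0.36 that did not pass (adjusted p = 0.23). In WT it fell after TAC by 0.59 on the log2 scale (adjusted p = 0.023), with 10.9 ± 1.16 CPM in WT TAC (SD, n = 6) and 16.5 ± 0.834 CPM in WT sham (SD, n = 2). In WT the matrix genes Hspg2 (perlecan, 0.51), Emilin1 (1.23) and Dcn (decorin, 0.57) rose after TAC. Adamts3, the protease needed to process Vegfc, fell after TAC in KO (-1.77, adjusted p = 0.021), with 0.842 ± 0.234 CPM in KO TAC and 2.93 ± 1.02 CPM in KO sham. After TAC the semaphorin gene Sema3c (-0.79, adjusted p = 0.0035), the matrix gene Svep1 (-1.29, adjusted p = 0.018), whose protein binds Tie1, and Dcn (-0.47, adjusted p = 0.034) were lower in KO than in WT. Dcn is also in the fibroblast list. In the same comparison 0 genes of that list rose and 6 of 16 fell, Dcn among them. Without the library labelled WT TAC replicate 1, 15 of 16 fell. The part of fibroblast content in these differences was not tested.

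Of 34 genes that carry the signal of the VEGF receptors, 0 rose and 1 fell in TAC against sham in KO, 5 rose and 3 fell in WT, and 1 rose and 3 fell in KO against WT after TAC. In the same order, 2.94%, 23.5% and 11.8% of the list passed, or 8.82%, 26.5% and 17.6% without the library labelled WT TAC replicate 1. In KO, the PI3-kinase subunit gene Pik3r1 fell (-0.65, adjusted p = 0.027). In WT, the GTPase gene Cdc42 (0.38), the phospholipase gene Plcg2 (0.60) and the kinase gene Mapk3 (0.31) rose and the kinase gene Mapk14 fell (-0.48). After TAC, Plcg2 (-1.003, adjusted p = 0.00072), Src (-0.59, adjusted p = 0.012) and Vav2 (-0.28, adjusted p = 0.038) were lower and Rasip1, an endothelial regulator of small GTPases, higher (0.31, adjusted p = 0.043) in KO than in WT. Plcg2 is best known from blood cells. In the same comparison 5 of 16 macrophage markers fell and 0 were higher, or 9 of 16 fell without the library labelled WT TAC replicate 1. A link between the Plcg2 difference and macrophage content was not tested.

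Of 30 genes of the hypoxia response, of which Vegfa is a textbook target, 1 rose and 2 fell in TAC against sham in KO, 1 rose and 3 fell in WT, and 0 rose and 4 fell in KO against WT after TAC. These are 10%, 13.3% and 13.3% of the list in the same order, and 10%, 26.7% and 26.7% passed without the library labelled WT TAC replicate 1. Loxl2, a collagen-modifying oxidase, rose after TAC in both genotypes (1.68 in KO and 1.82 in WT), and Ppargc1a, a regulator of mitochondrial genes and of Vegfa, fell in both (-0.79 in KO and -0.93 in WT). Mxi1 fell in KO (-0.42), and Hif1an (-0.63) and Hk2 (-0.50) fell in WT. The collagen hydroxylase gene P4ha1 (-0.47), Mxi1 (-0.35), Ero1l (-0.35) and Loxl2 (-0.92) were lower in KO than in WT after TAC. In this comparison 13.3% of the list passed, against 9.34% of all genes. Of 16 fibroblast markers 0 rose and 6 fell in it, and the part of fibroblasts in these differences was not tested. The Loxl2 call was close to the threshold, and its KO TAC and WT TAC values overlapped. Neither Hif1a nor Epas1, the oxygen-regulated factors, passed in any comparison.

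Of 28 genes of vessel sprouting and tip cells, 5 rose and 0 fell in TAC against sham in KO, 11 rose and 0 fell in WT, and 2 rose and 3 fell in KO against WT after TAC. These are 17.9%, 39.3% and 17.9% of the list, and 17.9%, 39.3% and 32.1% passed without the library labelled WT TAC replicate 1. Cd34 rose in both genotypes (0.54 in KO and 0.63 in WT). In KO Plaur, the urokinase receptor gene (1.88, adjusted p = 0.0093), Unc5b (0.47) and Nid2 (0.56) rose, and in WT Adgra2 (0.73), Col4a1 (1.15) and Mmp14 (1.49) rose. After TAC, Adgra2 (-0.56), Lama4 (-0.30) and Unc5b (-0.32) were lower and Pdgfb, the growth factor by which endothelial cells recruit pericytes, higher (0.37) in KO than in WT. Several of these genes, such as Cd34, Col4a1 and Mmp14, are also made by fibroblasts, of whose 16 markers 2 rose in KO and 11 in WT after TAC. The part of fibroblasts in the differences of these genes was not tested.

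Of 20 tested genes of angiopoietin signalling and vessel quiescence, 2 rose and 0 fell in TAC against sham in KO, 2 rose and 0 fell in WT, and 3 rose and 5 fell in KO against WT after TAC. The shares were 10%, 10% and 40%, or 15%, 15% and 50% without the library labelled WT TAC replicate 1. The genes that rose after TAC were Birc5 (2.36 in KO and 1.69 in WT) and Ccnd1 (0.80 in KO and 0.60 in WT), both known also for cell division. Of 18 cell cycle genes, 17 rose in KO, 13 rose in WT, and 11 were higher in KO than in WT after TAC. A link between these counts and the rise of Birc5 and Ccnd1 was not tested. The adhesion molecule gene Vcam1 (-0.63) and the endothelin gene Edn1 (-0.56) were lower and Klf4 (0.31) and Birc5 (0.89) higher in KO than in WT after TAC. Of the 10 tested lymphatic genes, 2 rose and 0 fell after TAC in KO, Pdpn (1.00) and Itga9 (0.61). In WT 2 rose and 1 fell: Pdpn (0.97) and Itga9 (0.52) rose, and Prox1 fell (-0.74). These are 20% of the lymphatic list in KO and 30% in WT. Pdpn is also in the fibroblast list, and the lymphatic markers Lyve1, Mmrn1 and Reln passed in neither genotype. In the pericyte and smooth muscle list Cspg4 alone of 16 genes rose, in KO (0.70) and in WT (0.51), which is 6.25% of that list in each genotype. Of all genes in these lists, 0 passed by edgeR between the sham groups and 0 in the interaction with all libraries.

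The genes whose levels followed the 3 called genes most closely are given as a description over 14 libraries that share group differences and depth, out of 13430 genes whose mean level reached 1 CPM. For Vegfa these included Zkscan3 and Grip2, with Pearson r of 0.974 and 0.97. For Vegfb they were Phb2, Sdhb and Fahd2a, with r of 0.975, 0.973 and 0.97. For Angpt1 they were Aqp4, Scd4 and Slc27a1, with r of 0.948, 0.945 and 0.933.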

How the data were processed

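Polyadenylated RNA of 14 ventricle samples was sequenced. The authors deposited raw read counts per gene. Per the submitters' processing notes, FastQC, HISAT2 2.1.0, featureCounts and edgeR were used on GRCm38, but no source used here gives their roles, the annotation release or the strand setting. Without a known strand setting, reads of overlapping antisense genes cannot be told apart.

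From these counts, edgeR 4.0.16 in R 4.3.3 was run with filterByExpr, TMM factors and a robust quasi-likelihood fit of the 4 group means over all 14 libraries. P-values were adjusted with Benjamini-Hochberg over all 15876 genes of a comparison, with a threshold of 0.05. The SE is the log2 fold change over the square root of F. A log2 fold change is the tested condition over its control, and a called gene is one past the threshold. CPM values use TMM factors and are given as mean ± SD. The pseudocount of log2(CPM + 0.5) was 0.5.

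The members, gene lists, tests and naming rule were chosen with earlier results of these data known. The rule names all 10 genes in every comparison, Ccl24, up to 4 called genes with the smallest p of each list, and the 3 likest genes of called members; the marker, cell cycle and immediate early lists are given mostly as counts. The lower limit of 1 CPM for the likest genes was not part of the rule. A result for 1 of the likest genes is not reported here. Replicates all differed by more than sampling noise (chi-square per degree of freedom 4.55 to 176 over 23 pairs). Alternatives included DESeq2 1.42.0 and limma 3.58.1. Promoter sequences are from RefSeq on GRCm38.p6, of which a table with 8 of the 10 genes was used; promoters of Angpt1 and Angpt2 were not analysed here. List counts and receptor tests without the library labelled WT TAC replicate 1 were added after the data were seen. The edgeR fit was tested on simulated data for the comparisons between groups, and not for the interaction. The receptor permutation tests, list counts, promoter search and likest genes were not part of that test.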

Additional observations from a re-analysis of the deposited data

How the results depend on the processing

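Over 1090 estimates under alternative settings, 1009 kept direction and side of the threshold, 23 lost the call, 13 gained one and 45 changed sign, none of them in a comparison in which the gene was called. Of the called genes, Angpt1 in TAC against sham in KO passed in 21 of 22 alternatives, Vegfb in KO against WT after TAC in 12 of 22 and Vegfa in 9 of 22. The count of called genes among the 10 for TAC against sham was 1 in KO in every setting but that without KO sham replicate 1 (0), and in WT it was 0, against 2 by DESeq2 and 2 by limma voom. In WT, DESeq2 and limma voom called 2779 and 5730 genes in all. For KO against WT after TAC the count among the 10 was 2, with 1 without a filter on low counts, 4 with limma voom, 0 with only the compared groups in the fit and 0 with the replicate block. Over all genes these settings called 1247, 4587, 783 and 45. Between the sham groups the count among the 10 was 0, and 1 each with DESeq2, limma voom and only the compared groups in the fit. Over all genes these settings called 147, 705 and 1158. Leaving out 1 library gave counts among the 10 of 0 to 1 for TAC against sham in KO, 0 to 1 in WT, 0 to 3 for KO against WT after TAC, 0 to 0 between the sham groups and 0 to 0 for the interaction. The cause was not tested. Over all genes the counts were 648 (1 to 1898 over the alternatives), 1930 (0 to 5730), 1483 (45 to 4587), 20 (3 to 1158) and 0 (0 to 7) in the same order.

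Replicate numbers gave no sign of pairing: the correlations of same-numbered libraries were -0.244 to 0.108 over 13 pairs, 1 of them over 0.1. Levels were centred within each group first, which makes the 2 libraries of a sham group mirror images. The check is therefore weak and cannot exclude pairing. With the replicate block, 367, 22, 45, 13 and 0 genes were called in the same order of comparisons. Under the block the log2 fold change of TAC against sham in WT turned to 0.000998 for Vegfb, 0.0712 for Vegfc, 0.00515 for Flt1, 0.0482 for Kdr, 0.0272 for Angpt2 and 0.116 for Tek. In KO it turned to -0.0552 for Tie1. In KO against WT after TAC it turned to -0.011 for Angpt2 and -0.133 for Tek, and in the interaction to -0.00854 for Vegfb and -0.222 for Kdr.

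Of the other changes of sign, the largest was to 0.142, for Flt4 in the interaction. In KO against WT after TAC, Flt1 was 0.00281 without mitochondrially encoded genes and 0.0011 with limma voom. In the interaction, Flt4 was 0.00104 with DESeq2 size factors, 0.00195 without a filter, 0.000969 with DESeq2 and 0.059 with limma voom, and Angpt2 was 0.0147 with limma voom. Leaving out 1 library gave ranges across 0 for Flt1 in TAC against sham in WT (-0.0961 to 0.0553) and for Tie1 in KO (-0.0572 to 0.0676). In KO against WT after TAC they were -0.0607 to 0.0274 for Flt1, -0.00277 to 0.112 for Flt4 and -0.00364 to 0.109 for Tek. Between the sham groups they were -0.00419 to 0.227 for Flt1, -0.0961 to 0.211 for Flt4 and -0.0273 to 0.097 for Tie1. In the interaction they were -0.0579 to 0.272 for Kdr, -0.166 to 0.142 for Flt4 and -0.287 to 0.123 for Angpt2.

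The sham groups hold 2 libraries each, so that a difference between them, or from TAC, rests on few mice.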
